A study of Mus musculus with 30 samples.

Results

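The libraries described here are the 6 ATAC-seq libraries of NIH 3T3 cells among the 30 libraries of the series: 3 from cells given CK666 for 4 h and 3 from untreated control cells. They were chosen by their labels, and each group is described from its own 3 columns of a table of read counts per accessible region. NIH 3T3 is an established line of mouse embryonic fibroblasts that grows without senescence and has an unstable, aneuploid karyotype. The labels give all 6 libraries as male and of strain C57BL/6J, the strain also given for the marrow cells of the series, although the line is known to derive from Swiss mouse embryos. Each library was made with the Omni-ATAC protocol from 50000 cells. The labels give no vehicle for the control cells and no CK666 dose for these cells. Nothing states that replicates came from separate cultures, so p-values measure the spread between these libraries, which may be technical.

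Cells build branched actin networks with the Arp2/3 complex, which binds the side of an existing filament and starts a new one from it. WAVE, WASP and related proteins switch the complex on, and CK666 is a small molecule that holds it in its inactive form. Actin also enters the nucleus, where monomers are subunits of chromatin remodelling complexes. Free actin monomers bind MRTF, the coactivator of SRF, and keep it from its target genes. ATAC-seq uses a transposase that cuts open DNA, so that the number of cuts at a promoter or enhancer measures its accessibility. The comparison addresses whether blocking Arp2/3 for a short time changes chromatin accessibility in a cell type other than the marrow mesenchymal stem cells (MSCs) on which the study centres.

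Total counts were between 24368857 and 27866363 in the control libraries and between 14496058 and 23146416 in the CK666 libraries, with CK666 replicate 1 the shallowest. Regions that contain a transcription start site (TSS) held 25.7 to 27.5% of the counts in the control and 26.1 to 27.3% in the CK666 libraries. The most covered 5% of regions held 42.9 to 45.9% of the counts in the control and 40.3 to 43.8% in the CK666 libraries, so the groups overlapped. In the first principal component, which held 93.8% of the variance of the 1000 most variable regions, the CK666 libraries lay between -20.5 and -17.6 and the control libraries between 16.8 and 20.5. Rank correlations across regions were 0.904 to 0.906 between control libraries, 0.834 to 0.88 between CK666 libraries and 0.759 to 0.822 between groups (described over 197146 regions, which are not independent replicates). Of 14 fibroblast markers, 12 had a region at their TSS, and 7 of these exceeded the median level of all such regions in the control libraries (9.0 CPM per kilobase, where CPM is counts scaled to the library total). Of 8 haematopoietic, 6 endothelial, 5 adipocyte and 6 epithelial markers, 3, 5, 5 and 0 had a TSS region, and none of these exceeded that median. All 8 marrow stromal markers had one, and 2 of them exceeded it: Kitl at 12.7 and Ebf3 at 62.0 CPM per kilobase, the latter above every fibroblast marker (3.91 to 46.2). The Cdkn2a and Cdkn2b locus with 10000 bp on each side (chr4:89272192-89321039, GRCm38), which is deleted in NIH 3T3 cells, held 0 to 2 counts per NIH 3T3 library and 1119 to 1388 per MSC library at 4 h. Coordinates here are GRCm38, counted from 1.

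Accessibility differed between the CK666 and control libraries in both directions. Of 331963 regions tested, 6216 gained (1.87% of those tested) and 5549 lost accessibility (1.67%), where a gain or loss is an adjusted p under 0.01 with a log2 fold change beyond 1 in edgeR's quasi-likelihood F test (Benjamini-Hochberg adjustment). Gains were mostly regions of low starting level, with a median normalized count of 14.1 in the control and 41.8 in the CK666 libraries. Losses were mostly regions that were well covered before, with medians of 89.7 and 37.1. Over all tested regions the medians were 23.1 in the control and 25.3 in the CK666 libraries. The control counts enter the call, so a low control level in gains and a high one in losses are in part set by it. The called gains were also the larger changes: their median log2 fold change was 1.6 and 24.3% of them passed 2, against a median of -1.23 and 3.53% beyond -2 for the losses. Their median mean count was 28.1 against 63.5 for losses, and a call needs a larger change at low counts. Of the 1315 gains with a mean of at least 50, 114 passed 2. Sizes of gains and losses were not compared at equal level. The control and CK666 libraries did not overlap in 98.0% of gains and 99.6% of losses, and in 29.8% of all tested regions. Gains made up 52.8% of the calls with the main (TMM) scaling and 69.5% with scaling by total counts, which moved every log2 fold change up by 0.11. The counts also moved with the libraries and the tool: gains were 3454, 3446 and 3528 without control replicate 1, control replicate 3 or CK666 replicate 3, and DESeq2 called 3194 gains and 4842 losses. The part of the share held by the most covered 5% of regions in these levels was not tested. In libraries from many cells, a change in every cell and a change in the share of cells in 1 state cannot be told apart.

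**Figure D1:**
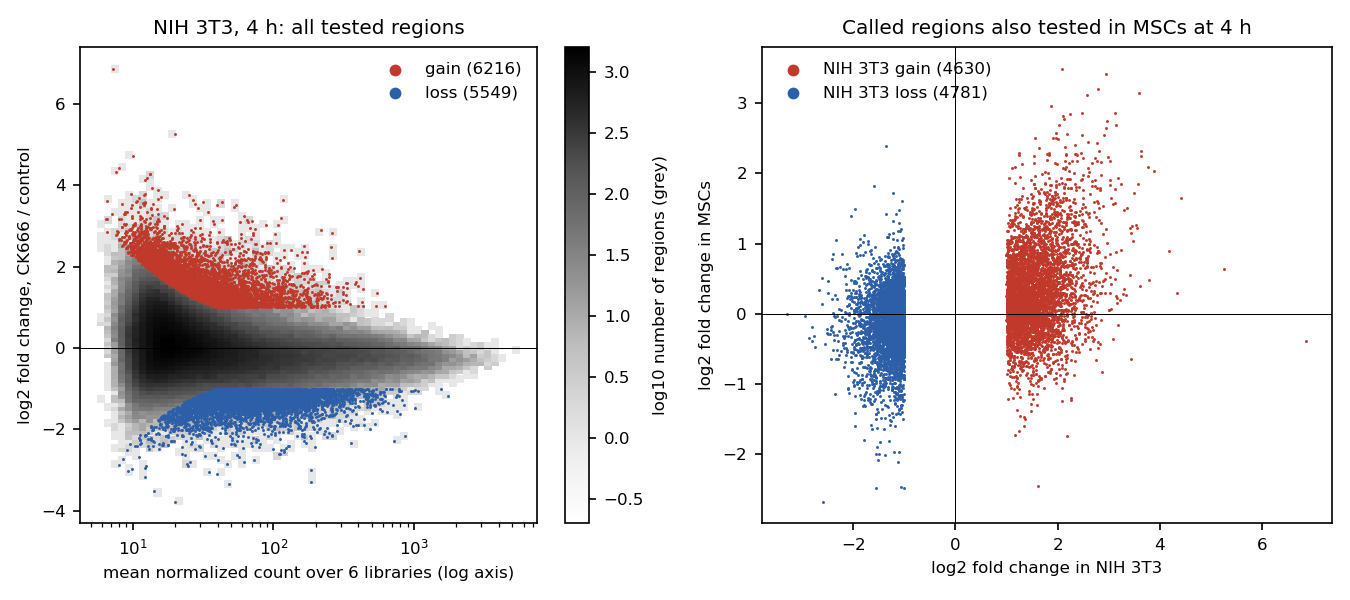
Left, log2 fold change (CK666 over control) against the mean normalized count over 6 libraries on a log axis, with the 6216 gains in red, the 5549 losses in blue and all tested regions in grey; gains reach low-count regions, where losses are rare. Right, the log2 fold change of the called regions in NIH 3T3 cells against that in MSCs after 4 h, for the 4630 gains and 4781 losses also tested there. Most points lie closer to 0 on the MSC axis, but they were chosen by their change in NIH 3T3 cells.

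The 10 largest gains among regions whose mean normalized count reached 50 all contained the same short sequence. It is TGATGNAA, which is the core of the C/EBP-ATF element bound by dimers of ATF4 and C/EBP factors such as CHOP, the factors of the unfolded protein and amino acid responses. This motif was picked after the sequences of the gains had been seen. Its high share among the gains is in part set by that choice and is no test of it. Stretches of GRCm38 around it in 6 of the 10 regions are shown as examples, 5′ to 3′ on the given strand. Capitals mark the match.
Dip2c intron (chr13:9643653-9643720, plus strand): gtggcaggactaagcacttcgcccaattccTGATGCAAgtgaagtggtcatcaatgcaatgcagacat
Sorcs2 intron (chr5:36257197-36257264, minus strand): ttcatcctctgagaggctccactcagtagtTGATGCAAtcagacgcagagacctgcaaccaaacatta
Hdac4 intron (chr1:92183266-92183333, plus strand): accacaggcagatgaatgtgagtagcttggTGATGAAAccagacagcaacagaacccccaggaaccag
upstream of Ceacam15 (chr7:16692036-16692103, minus strand): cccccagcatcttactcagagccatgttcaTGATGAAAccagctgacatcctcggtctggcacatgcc
downstream of Irx3 (chr8:91769074-91769141, plus strand): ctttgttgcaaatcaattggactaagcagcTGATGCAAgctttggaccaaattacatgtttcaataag
Cubn intron (chr2:13335590-13335657, plus strand): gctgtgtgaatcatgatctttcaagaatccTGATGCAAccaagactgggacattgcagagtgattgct
The letter left free was C or A in these 6 stretches.

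The largest gain was in an intron of Dip2c (chr13:9643363-9643916), whose normalized counts were 12.2, 16.4 and 23.4 in the control and 194, 212 and 249 in the CK666 libraries. All 3 CK666 libraries lay far above all 3 controls, and the log2 fold change was 3.64 ± 0.22 (SE, n = 3 per group, adjusted p = 2.76e-21, edgeR quasi-likelihood test). In an intron of Sorcs2 (chr5:36256950-36257544), a sorting receptor gene, counts of 4.05, 14.8 and 6.29 stood against 87.5, 114 and 95.6 (log2 3.50 ± 0.30). Again the groups were well apart, though the control counts were low and uneven. An intron of Hdac4 (chr1:92183024-92183647), a class IIa histone deacetylase gene, went from 8.10, 8.22 and 9.89 to 56.4, 119.5 and 113 (log2 3.47 ± 0.30). The shallowest CK666 library had the lowest of its 3 CK666 values and was still above every control.

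Other large gains lay near genes of varied function. Upstream of Map2k1 (chr9:64260911-64261485), which encodes the ERK kinase MEK1, the counts were 10.1, 13.1 and 12.6 in the control and 97.9, 111 and 100.3 in the CK666 libraries, a log2 fold change of 3.09 ± 0.27. Values within each group were close together there. Downstream of Irx3 (chr8:91768763-91769301), an Iroquois homeobox gene, the control counts of 16.2, 14 and 12.6 rose to 129, 133 and 114, a log2 fold change of 3.13 ± 0.25. The remaining 5 of the 10, upstream of Ceacam15 and 4933402D24Rik and in introns of Slc39a11 (a zinc transporter), Cubn (the receptor for intrinsic factor and vitamin B12) and N4bp1, had log2 fold changes of 3.02 to 3.25. Their groups did not overlap either.

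The largest loss was in an intron of Nckap1 (chr2:80506051-80506605), which encodes a subunit of the WAVE complex that activates Arp2/3. Its normalized counts were 336, 301 and 373 in the control and 22.3, 47.8 and 30.6 in the CK666 libraries, a log2 fold change of -3.28 ± 0.19 (adjusted p = 1.36e-21, edgeR quasi-likelihood test). Every CK666 library was far below every control. The nearest TSS is that of Frzb, 58703 bp away, so the region is not counted under Nckap1 in the gene lists below. Another strong loss lay between genes, 17373 bp downstream of the TSS of 1700057G04Rik (chr9:92360600-92361155), with 372, 253 and 369.5 against 34.1, 46.8 and 41.1 (log2 -3.00 ± 0.18). Here too the groups stood wide apart.

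The next losses lay at genes for a matrix protease and for enzymes of the mitochondrion, DNA repair and the endoplasmic reticulum. In an intron of Mmp19 (chr10:128795566-128796095), a matrix metalloproteinase gene, counts fell from 128, 94.5 and 103 to 5.93, 12.5 and 24.9 (log2 -2.80 ± 0.28). In an intron of Atp5g2 (chr15:102663922-102664479), which encodes the c subunit of ATP synthase, they fell from 145, 115 and 121 to 23.7, 17.7 and 16.3 (log2 -2.75 ± 0.24). A region over a coding exon of Ogg1 (chr6:113333096-113333622), the glycosylase that removes oxidized guanine, fell from 105, 104 and 88.1 to 7.42, 18.7 and 18.2 (log2 -2.67 ± 0.27). In all of these regions the highest CK666 value was well below the lowest control value. Regions near Klk7 (a serine protease), in Uggt1 (a sensor of glycoprotein folding), near Mapk1ip1 and Eomes (a T-box factor) and in Fan1 (a nuclease of DNA crosslink repair) followed, with log2 fold changes from -2.64 to -2.51 and no overlap between groups.

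**Figure D2:**
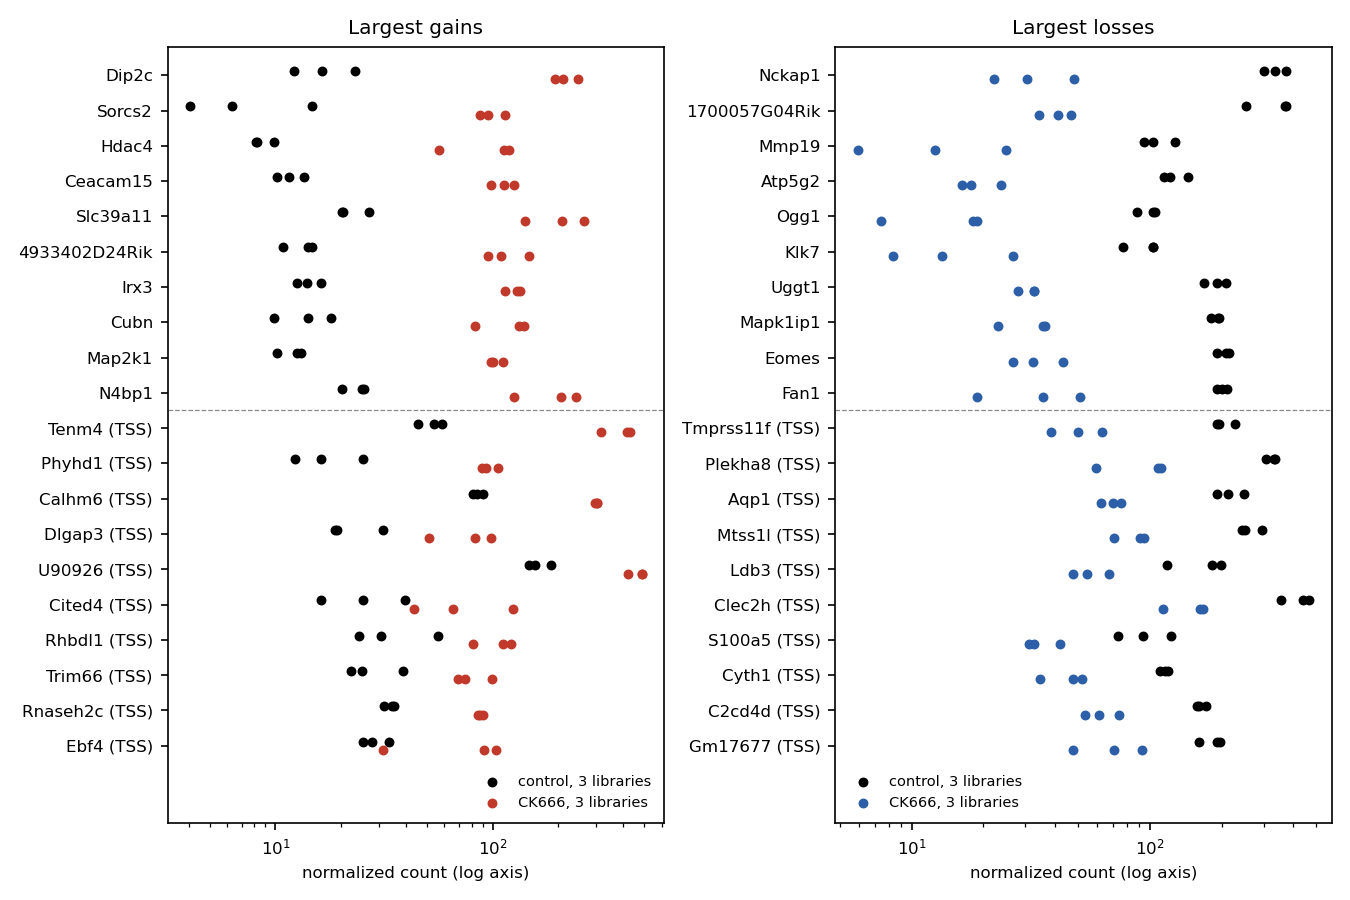
Normalized counts (log axis) of every library for the 10 largest gains (left) and losses (right) with a mean of at least 50, and below the dashed line for the 10 largest at the TSS of a protein-coding gene, with control libraries in black and CK666 libraries in red or blue. The groups are apart in every row but that of Ebf4, where 1 CK666 library lies among the controls.

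Regions at a TSS took a small share of the changes. A TSS lay in 3.81% of gains (237 regions), in 1.75% of losses (97) and in 5.72% of all tested regions. The median distance to the nearest TSS was 13289 bp for gains, 19024 bp for losses and 14006 bp for all tested regions. Introns of protein-coding genes held 45.6% of gains and 46.9% of losses, and 41.7% and 43.1% lay between genes, close to the shares of all tested regions (44.8% and 43.1%). Coding exons held 3.19% of gains, 0.865% of losses and 1.94% of tested regions.

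At promoters the widest gain was at Tenm4 (chr7:96170837-96172102), which encodes a teneurin, a large transmembrane adhesion protein. It went from 53.7, 45.2 and 58.4 in the control to 316, 427 and 416 in the CK666 libraries (log2 2.89 ± 0.17, adjusted p = 1.36e-21, edgeR quasi-likelihood test). The lowest CK666 value was several times the highest control value. The TSS region of Phyhd1 (chr2:30265530-30266213), a dioxygenase gene, went from 25.3, 12.3 and 16.2 to 93.4, 106 and 89.8 (log2 2.44 ± 0.26), and it was the single one of the 10 named promoter gains to hold TGATGNAA. Calhm6, of a family of ion channels, went from 81, 84.6 and 90.8 to 297, 303 and 304 (log2 1.81 ± 0.15), with tight values in both groups. Dlgap3, U90926, Cited4, Rhbdl1, Trim66, Rnaseh2c and Ebf4 followed with log2 fold changes of 1.36 to 1.71. The last of these overlapped: Ebf4 had 25.3, 27.9 and 33.3 in the control and 104, 31.2 and 91.7 in the CK666 libraries, and it was not called without CK666 replicate 3 (log2 1.15). Cited4 was not called without CK666 replicate 1 (log2 1.01).

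Promoter losses were led by Tmprss11f (chr5:86632234-86632761), a membrane serine protease gene, with 228, 196 and 192 in the control and 38.6, 49.9 and 63.1 in the CK666 libraries (log2 -1.99 ± 0.18). Plekha8, a glycolipid transfer protein gene, went from 335, 308 and 331 to 59.3, 111 and 108 (log2 -1.77 ± 0.16). Aqp1, the water channel aquaporin 1, went from 213, 191 and 248 to 62.3, 69.6 and 75.5 (log2 -1.64 ± 0.17). In these 3 promoters no CK666 library reached the level of a control. Mtss1l, which encodes a protein that bends membranes and binds actin, was at -1.64, and Ldb3, Clec2h, S100a5, Cyth1, C2cd4d and Gm17677 were between -1.53 and -1.34, all without overlap.

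Some genes collected several calls. Among 19261 protein-coding genes with a tested region within 50000 bp of their TSS and nearest to it, 3134 (16.3%) had a gain, 2180 (11.3%) a loss and 370 both. Dab2ip, a Ras GTPase-activating protein gene, had most gains, 9 of its 83 regions, followed by Mecom (7 of 100, with 3 losses), Casd1 (6 of 18), Gatb (6 of 25) and Psd3 (6 of 98, with 1 loss). At Casd1, which encodes an enzyme that acetylates sialic acid, the median over all 18 regions was 0.99 on the log2 scale. It was 0.56 at Gatb, 0.39 at Dab2ip, 0.10 at Psd3 and 0.02 at Mecom. Tmprss11e had most losses, 7 of 22 regions, followed by Zfp184 (6 of 20), Sox9 (6 of 27), Macc1 (6 of 47) and Zbtb20 (6 of 53). Sox9 is the master regulator of cartilage formation, and its regions had a median log2 fold change of -0.32. The medians were -0.77 at Zfp184, -0.45 at Tmprss11e, -0.29 at Macc1 and -0.21 at Zbtb20. None of these 5 genes with most losses had a gain. Over all regions within 50000 bp of a protein-coding TSS 1.99% gained, 1.44% lost and the median was 0.05. The named genes were picked by their number of calls, and a gene with more regions can collect more of them.

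Motif shares in the central 300 bases set the gains and losses apart from the rest of the regions. TGATGNAA, searched on both strands, was in 22.2% of gains (1382 regions), 3.66% of losses and 5.83% of all tested regions. Among the 114 gains beyond log2 2 with a mean of at least 50 it was in 49.1%. Read the other way, 7.14% of regions with the element gained, against 1.55% of those without it. The share of gains with the element was 18.4 to 30.6% in 5 classes of equal size by mean count, against 5.21 to 6.31% of all regions in those classes. The single word TGATGCAA was in 25.4% of the 114 gains and in 1.39% of tested regions. It was among the top words when words of 8 letters were ranked by this contrast in the same 114 gains. As with TGATGNAA, its share there is in part set by how it was picked. The TEAD motif ACATTCC was in 8.77% of gains, 4.79% of losses and 6.94% of tested regions.

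Losses carried the AP-1 motif, TGANTCA, which is bound by dimers of the FOS and JUN families and marks many fibroblast enhancers. It was in 54.3% of losses (3015 regions), 18.3% of gains and 29.3% of all tested regions. Of regions with the motif 3.1% lost accessibility and 1.17% gained it, against 1.08% and 2.17% of those without it. The share among losses was 45.7 to 55.4% in the 4 upper classes of mean count, against 27.2 to 33.0% of all regions there, and 19% among the 42 losses of the lowest class, against 26.0%. The NRF2 word TGACTCAGC, which contains an AP-1 match, was in 4.22% of losses against 2.29%, the SRF word CCTTATNNG in 3.17% against 2.25%, and the SOX word AACAATG, also picked after the sequences had been seen, in 7.79% against 5.03%. Of the 10 largest losses 5 held an AP-1 match, and 4 of them are shown with the match in capitals. The Nckap1 intron had none, and its stretch is shown with the SOX word in capitals.
Atp5g2 intron (chr15:102664205-102664271, plus strand): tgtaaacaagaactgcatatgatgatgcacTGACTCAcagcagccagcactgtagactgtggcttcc
Uggt1 intron (chr1:36200453-36200519, plus strand): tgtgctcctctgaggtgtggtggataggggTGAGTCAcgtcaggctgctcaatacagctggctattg
downstream of Mapk1ip1 (chr7:138752407-138752473, plus strand): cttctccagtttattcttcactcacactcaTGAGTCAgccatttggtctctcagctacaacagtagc
upstream of Eomes (chr9:118448353-118448419, plus strand): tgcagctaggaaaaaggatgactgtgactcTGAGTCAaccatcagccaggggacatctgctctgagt
Nckap1 intron (chr2:80506229-80506295, plus strand): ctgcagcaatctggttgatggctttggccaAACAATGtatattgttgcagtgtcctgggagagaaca
A match is a description of the letters and does not show that a factor was bound.

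**Figure D3:**
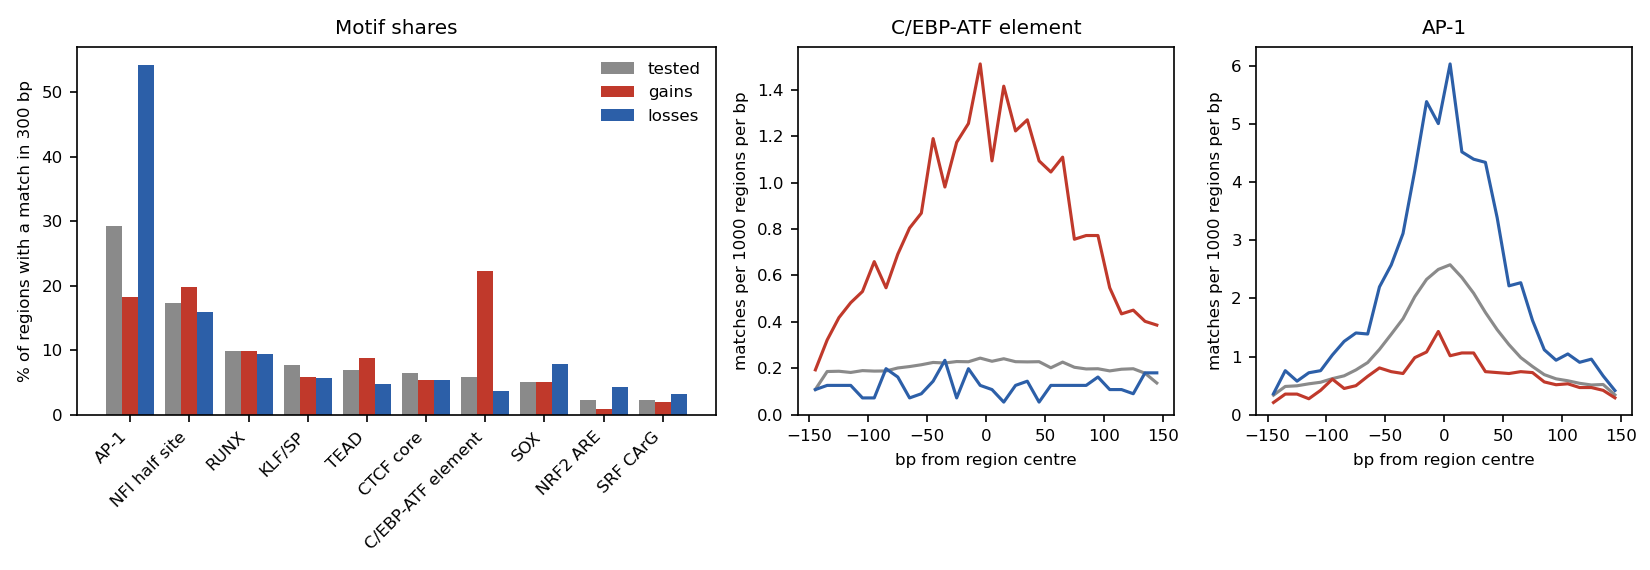
Left, percent of tested regions (grey), gains (red) and losses (blue) with a match to each motif in the central 300 bp; centre and right, matches per 1000 regions per bp against distance from the region centre for the C/EBP-ATF element and AP-1. The C/EBP-ATF element is in 22.2% of gains against 5.83% of tested regions and AP-1 in 54.3% of losses against 29.3%, and both peak near the region centre.

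Genes of the unfolded protein response had the highest share of gains of the lists compared. The response starts with sensors in the endoplasmic reticulum (Ern1, Eif2ak3), runs through the factors Xbp1, Atf4 and Ddit3 (CHOP) and ends at chaperones and stress effectors. Of 173 regions nearest to 14 of its 15 genes, 19 gained (11%) and 3 lost (1.73%), with a median log2 fold change of 0.35. Over all 198512 regions within 50000 bp of a TSS of a protein-coding gene, 1.99% gained, 1.44% lost and the median was 0.05. The gains were near 11 of the genes, with Chac1, which degrades glutathione, holding 5 of the 19. Within 5000 bp of a TSS, 9 of 57 regions gained and 1 lost. With 1 library left out the list had 14 to 19 gains, and 13 of the 19 were called in all 6 such fits.

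Individual stress effectors showed wide separation. In an intron of Ppp1r15a (chr7:45523187-45524255), whose product GADD34 recruits the phosphatase of eIF2 alpha, the counts were 15.2, 17.3 and 16.2 in the control and 81.6, 107 and 101 in the CK666 libraries (log2 2.57 ± 0.26, adjusted p = 6.52e-12, edgeR quasi-likelihood test). Upstream of Sesn2 (chr4:132513803-132514359), a stress-induced inhibitor of mTORC1, they were 37.5, 43.5 and 31.5 and 144, 242 and 212 (log2 2.42 ± 0.20). In both regions each CK666 library was at least 3 times the highest control. A region 11181 bp downstream of the TSS of Dnajb9 (chr12:44198846-44199444), an endoplasmic reticulum chaperone gene, rose from 42.5, 21.4 and 18.9 to 87.5, 90.4 and 83.1 (log2 1.68 ± 0.25). At Trib3, an inhibitor of AKT and of ATF4, a region in an intron of the neighbouring noncoding gene Gm14164, 3119 bp upstream of the TSS of Trib3, rose from 87.1, 94.5 and 91.7 to 215, 279 and 202 (log2 1.35 ± 0.16). At Ddit3 a region over its coding exons rose from 36.5, 29.6 and 24.3 to 65.3, 54.1 and 83.1 (log2 1.17 ± 0.26), with no overlap but a call that was lost without control replicate 3 (log2 1.02) or CK666 replicate 3 (log2 0.97). Not every sensor moved the same way: Ern1 (IRE1) had gains of 1.29 and 2.11, and Eif2ak3 (PERK) losses of -1.22 and -1.96 on the log2 scale, all in introns.

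A wider list of 33 ATF4 and integrated stress response targets was put together after the called regions had been seen. Asns, Chac1, Ddit3, Ppp1r15a, Sesn2 and Trib3 are on this list and on the unfolded protein response list. Gains near them are counted in both, so the lists are not separate results. Of 496 regions near 32 of them, 37 gained (7.46%), 2 lost (0.403%) and the median log2 fold change was 0.29. With 1 library left out the list had 23 to 37 gains, the fewest without control replicate 1, and 16 of the 37 were called in all 6 such fits. The gains were near 21 genes and spread over the branches of the response. Amino acid and folate metabolism was represented by Asns, Psat1, Phgdh, Aldh18a1, Aldh1l2 and Mthfd2, amino acid transport by Slc3a2 and Slc7a5, and secreted factors by Fgf21 and Stc2. The Slc7a5 gain was not called without any 1 control, CK666 replicate 1 or CK666 replicate 3 (log2 1.07 to 1.41). A gain at Slc3a2 was not called without control replicate 1 or 2 or CK666 replicate 1 or 3 (log2 0.83 to 1.11). Some gains at Stc2, Psat1, Phgdh, Aldh18a1, Mthfd2 and Fgf21 also lost their call without 1 library. In an intron of Aldh1l2, a mitochondrial folate enzyme, the counts were 39.5, 70.7 and 49.4 in the control and 126, 149 and 148 in the CK666 libraries (chr10:83530442-83530999, log2 1.40 ± 0.19). Upstream of Fgf21 (chr7:45616119-45616732), a stress-induced hormone, they were 8.10, 13.1 and 16.2 and 90.5, 52 and 56.4 (log2 2.36 ± 0.32). Neither region had overlapping groups. Atf3, a stress-induced repressor of the ATF family, had 3 gains 25994 to 30581 bp upstream of its TSS, with log2 fold changes of 1.98 to 2.83, and a loss of -1.40 4367 bp downstream and of -1.16 43864 bp upstream. The smallest of these gains was not called without control replicate 3, CK666 replicate 2 or CK666 replicate 3 (log2 1.74 to 1.90), nor the upstream loss without control replicate 2 or CK666 replicate 3 (log2 -1.09 and -1.02). The element and its surroundings in 3 of these gains are shown with the match in capitals.
upstream of Sesn2 (chr4:132514080-132514147, minus strand): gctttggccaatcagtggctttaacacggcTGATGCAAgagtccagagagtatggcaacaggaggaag
upstream of Fgf21 (chr7:45616339-45616406, minus strand): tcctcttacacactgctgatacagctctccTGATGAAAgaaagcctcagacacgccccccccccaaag
upstream of Atf3 (chr1:191243993-191244060, plus strand): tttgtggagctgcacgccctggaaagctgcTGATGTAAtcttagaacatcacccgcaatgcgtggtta

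**Figure D4:**
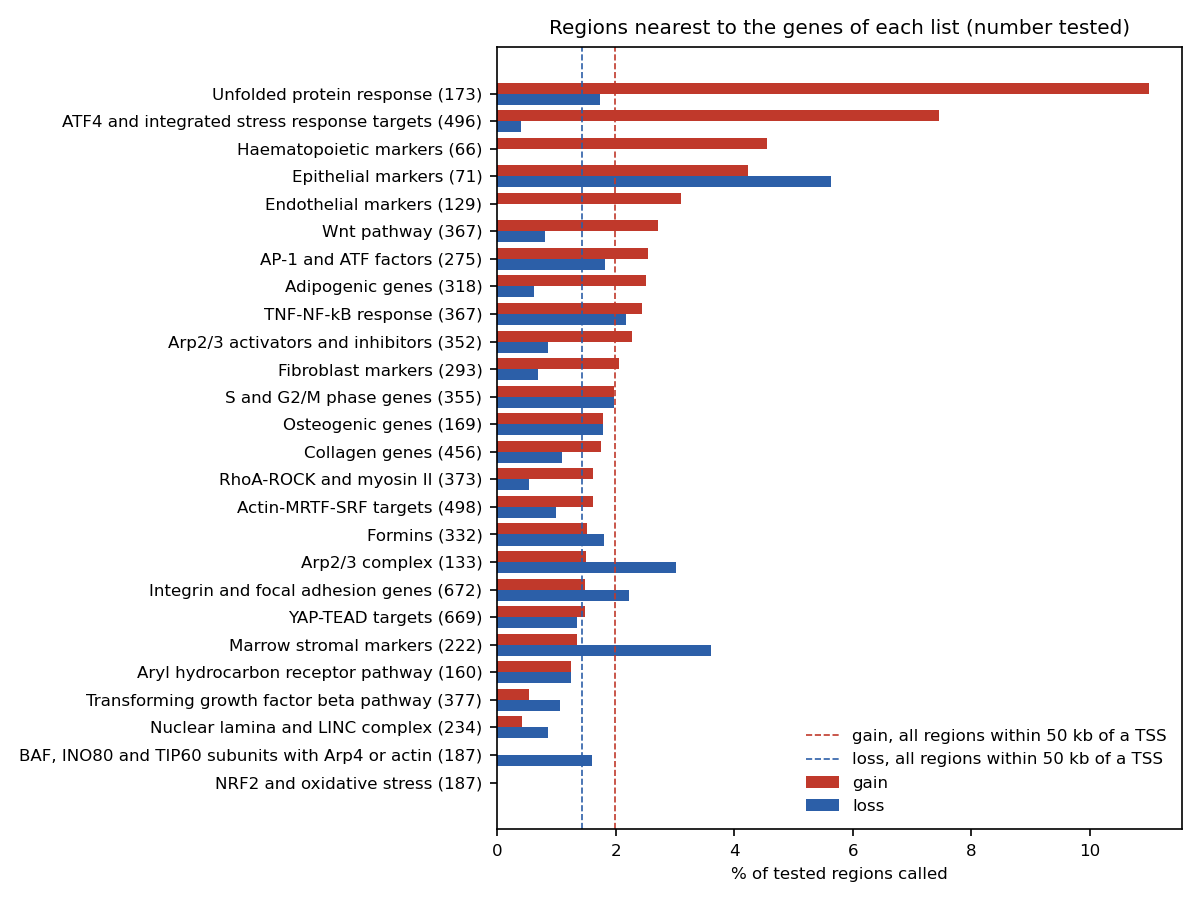
Percent of the tested regions nearest to the genes of each list that gained (red bars) or lost (blue bars) accessibility, with the number of regions in brackets and dashed lines at the shares over all regions within 50 kb of a protein-coding TSS (1.99% and 1.44%). The unfolded protein response and ATF4 lists, which share genes and count some gains in both, reach 11% and 7.46% gains, and no region of the NRF2 list was called.

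The Arp2/3 complex itself changed little at its promoters. None of the TSS regions of its 10 subunit genes was called, by edgeR's quasi-likelihood test, with log2 fold changes from -0.54 at Actr3 to 0.17 at Actr2. Of these regions 0 were higher and 4 lower at an unadjusted p under 0.05, and DESeq2 called 0 gains and 0 losses. Actr3, which encodes ARP3, had 2748, 2096 and 2590.0 counts in the control and 1662, 1822 and 1627 in the CK666 libraries, lower without overlap but within the fold limit (adjusted p = 8.04e-04, edgeR quasi-likelihood test). The Actb promoter behaved likewise, at -0.53 ± 0.14 with 350.4, 315 and 390.1 against 229.9, 278 and 219.8 (adjusted p = 0.00487, edgeR quasi-likelihood test). Over all 133 regions nearest to subunit genes, 2 gained (1.5%) and 4 lost (3.01%), with a median log2 fold change of -0.10. The shares over all regions within 50000 bp of a TSS were 1.99% and 1.44%. An intron region of Arpc5l (chr2:39011138-39012093) with the C/EBP-ATF element rose from 18.2, 29.6 and 20.7 to 105, 135 and 121 (log2 2.39 ± 0.23). A region 43202 bp upstream of Actr3 fell from 493, 338 and 464 to 126, 178 and 191 (log2 -1.37 ± 0.15). These 2 regions were apart in all libraries.

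Regulators of Arp2/3 and other actin nucleators showed isolated calls, at shares to be read against 1.99% gains and 1.44% losses. Near 24 activators and inhibitors of Arp2/3, 8 of 352 regions gained (2.27%) and 3 lost (0.852%). They included intron regions of Wasf3 (WAVE3), at 2.16 ± 0.25, and Wipf1, a partner of WASP, at 1.39 ± 0.20. Falls were in introns of Coro1c, of the coronin family of Arp2/3 partners, from 960.1, 806 and 877 to 243, 370.0 and 284 (log2 -1.55 ± 0.13), and of Jmy, a nucleator and p53 cofactor, from 632, 541 and 578 to 228, 225 and 250.4 (log2 -1.31 ± 0.13). The controls of both were above all CK666 libraries. Near 15 formins, which elongate unbranched filaments, 5 of 332 regions gained (1.51%) and 6 lost (1.81%).

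Targets of the actin-sensing transcription pathways were near the background shares of 1.99% gains and 1.44% losses. For 29 MRTF-SRF targets 8 of 498 regions gained (1.61%) and 5 lost (1.0%), with losses near Tpm1 (tropomyosin, -1.45), Fhl2 (-1.45) and Egr1 (-1.31) and a gain near Lmod1 (1.27). For 23 YAP-TEAD targets 10 of 669 gained (1.49%) and 9 lost (1.35%). A region 4168 bp downstream of the TSS of Ccn2 (chr10:24599249-24600538), the matricellular protein CTGF, fell from 256, 263 and 262 to 65.3, 107 and 89.8 (log2 -1.55 ± 0.16). All 3 CK666 values were well below every control value. The promoters of Ccn2 and Ccn1 were not called (-0.29 ± 0.13 and -0.34 ± 0.13). An intron of Myof (myoferlin) had a gain of 2.22 ± 0.22.

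Adhesion and matrix genes were mixed, at shares to be read against the same 1.99% gains and 1.44% losses. Near 25 integrin and focal adhesion genes 10 of 672 regions gained (1.49%) and 15 lost (2.23%). Upstream of Itga5, the alpha chain of the fibronectin receptor (chr15:103378844-103379455), counts fell from 260.3, 277 and 264 to 59.3, 71.7 and 83.1 (log2 -1.88 ± 0.16), and intron regions of Pdlim5 (-1.41) and Pxn (paxillin, -1.40) fell as well. A region upstream of Tns3, a tensin, rose (2.43). Near 19 collagen genes 8 of 456 gained (1.75%) and 5 lost (1.1%), among them a gain in Col5a3 (1.77) and losses near Col5a2 (-1.43) and in Col8a1 (-1.31). The list of RhoA, ROCK and myosin II genes had 6 gains (1.61%) and 2 losses (0.536%) in 373 regions. It included a gain at the promoter of Arhgef2, a RhoA exchange factor (log2 1.31 ± 0.14). Counts there rose from 122, 155 and 165 to 346, 361 and 389, with the groups apart.

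Differentiation and nuclear structure lists lay on both sides of the shares over all regions within 50000 bp of a TSS (1.99% gains and 1.44% losses). Near 18 adipogenic genes 8 of 318 regions gained (2.52%) and 2 lost (0.629%), with gains near Cebpa, Cebpd, Ebf1, Fabp4, Klf15, Pparg and Srebf1 and losses near Zfp423. With 1 library left out this list had 3 to 7 gains. Just 1 of the 8 gains and 1 of the 2 losses were called in all 6 such fits. DESeq2 called 4 gains and 1 loss. The promoters of Pparg (0.21 ± 0.35) and Runx2 (-0.13 ± 0.14) were not called. Near 13 osteogenic genes 3 of 169 regions gained and 3 lost (1.78% each). The nuclear lamina and LINC list had 1 gain (0.427%) and 2 losses (0.855%) in 234 regions, with a loss upstream of Sun1 (-1.48 ± 0.22). Subunits of the BAF, INO80 and TIP60 complexes, several of which contain actin and ARP4, had 3 losses (1.6%) and no gain in 187 regions. At an unadjusted p under 0.05 by edgeR's quasi-likelihood test 33 of these regions were higher and 19 lower. DESeq2 called 0 gains and 3 losses. The promoter of Actl6a (ARP4) was at -0.16 ± 0.12.

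Signalling lists held both directions, at shares to be read against the 1.99% gains and 1.44% losses of all regions within 50000 bp of a TSS. AP-1 and ATF factor genes had 7 gains (2.55%) and 5 losses (1.82%) in 275 regions, with a loss near Jun and gains near Fos and Batf. The TNF and NF-kB list had 9 gains (2.45%) and 8 losses (2.18%) in 367 regions, with a gain near Csf1 (1.78) and losses near Ptgs2 (-1.73) and Ccl2 (-1.15). Ptgs2 had a called gain as well. The TGF beta list had 2 gains (0.531%) and 4 losses (1.06%) in 377 regions, and the Wnt list 10 gains (2.72%) and 3 losses (0.817%) in 367. The aryl hydrocarbon receptor list had 2 of each in 160 regions (1.25%), and the S and G2/M phase list 7 of each in 355 (1.97%). With 1 library left out the aryl hydrocarbon receptor list had 0 to 3 gains and 1 to 2 losses. DESeq2 called 1 gain and 1 loss in it. The list of 12 NRF2 and oxidative stress genes had neither a gain nor a loss in 187 regions by edgeR's quasi-likelihood test. At an unadjusted p under 0.05, 27 of these regions were higher and 23 lower, and DESeq2 called 0 and 0.

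Marker lists of the cell type and of other cell types are read against the same shares (1.99% and 1.44%). Near 14 fibroblast markers 6 of 293 regions gained (2.05%) and 2 lost (0.683%), with a gain in Fbln2 (1.65) and a loss near Vim (-1.55). Vim had a called gain as well. Near 8 marrow stromal markers 3 of 222 gained (1.35%) and 8 lost (3.6%), among them a loss in Ebf3 (-1.46), which had a called gain as well. Near 8 haematopoietic markers 3 of 66 gained (4.55%), including the promoter of Cd68 (75, 87.1 and 71.9 in the control and 149.8, 159 and 163 in the CK666 libraries, log2 1.01 ± 0.17, groups apart). That call was lost without control replicate 1, control replicate 3, CK666 replicate 2 or CK666 replicate 3 (log2 0.93 to 0.97). Near 6 endothelial markers 4 of 129 gained (3.1%). Near 6 epithelial markers 3 of 71 gained (4.23%), all of them nearest to Cdh1. Another 4 lost (5.63%), among them regions near Krt18 (-1.82), Grhl2 (-1.42) and Krt8 (-1.31). Neither of the haematopoietic and endothelial lists had a loss by edgeR's quasi-likelihood test, with 5 and 18 regions lower at an unadjusted p under 0.05 and 0 and 0 losses by DESeq2. All gains of the haematopoietic and marrow stromal lists lost their call without CK666 replicate 3, those of the marrow stromal list also without control replicate 1, control replicate 3 or CK666 replicate 2, and those of the epithelial list without control replicate 2 or CK666 replicate 1.

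Gains and losses were unevenly placed along the genome. Chromosome 19 had 335 gains (3.67% of its tested regions) and 76 losses (0.832%), and the X chromosome 83 gains (1.3%) and 221 losses (3.47%). Shares of counts per chromosome moved with them. The share of counts on chromosome 19 was higher by 0.17 on the log2 scale in the CK666 libraries (0.15 to 0.19 above the control mean, against -0.02 to 0.03 in the controls). On chromosomes 11, 10 and 17 it was higher by 0.12, 0.10 and 0.08, and on the X chromosome lower by 0.13. These 5 differences were the largest, but the groups were apart on 16 of the 20 chromosomes (5 higher and 11 lower with CK666), for each of which an exact two-sided permutation test gave p = 0.1, the smallest it can give with 3 against 3 libraries. Control replicate 2 deviated from the other controls in the direction of the CK666 libraries on chromosome 19 (0.03) and on X (-0.05). When each chromosome was scaled to its own total, 7712 regions gained and 3441 lost, against 8022 and 3514 when each library was scaled to its total over all chromosomes. In MSCs at 4 h the difference between CK666 and control was 0.03 for the chromosome 19 share and -0.01 for X. In these counts, a difference between the CK666 and control cultures in the copy number of a chromosome or of a part of one cannot be told apart from a difference in accessibility, and this holds for the regional and bin values as well.

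**Figure D5:**
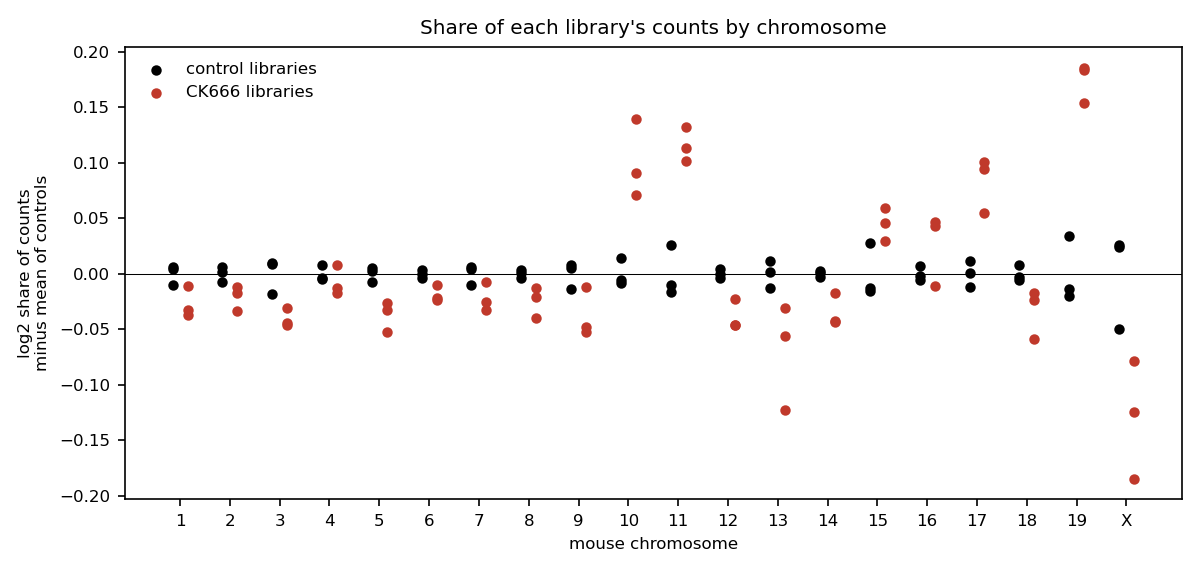
Log2 share of each library's counts on each chromosome, relative to the mean of the 3 controls, with control libraries in black and CK666 libraries in red. The groups are apart on 16 of 20 chromosomes, and the widest differences are on 19 (0.17 higher with CK666 on average) and X (-0.13).

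Summed over 1 Mb bins, 516 of 2552 bins rose (20.2%) and 610 fell (23.9%) at an adjusted p under 0.01 by edgeR's quasi-likelihood test, with median log2 fold changes of 0.28 and -0.21. On chromosome 19, 32 of 59 bins rose and 3 fell, and on X 3 of 150 rose and 44 fell. Bins that rose held 37.4% of the regional gains and 19% of all tested regions, and bins that fell held 56.0% of the losses and 32.2% of tested regions. With the called regions left out of the sums, 442 bins rose and 532 fell. Without control replicate 1 or 3, 338 and 341 bins rose. In MSCs, 59 bins rose and 59 fell (2.31% each).

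The largest rises were in sparsely covered bins. They started at 48 and 49 Mb of chromosome 1, 19 Mb of chromosome 17, 47 Mb of chromosome 3 and 38 Mb of chromosome 4, with 1 to 15 tested regions each and log2 fold changes of 0.94 to 1.28. Large falls started at X, 80 Mb (2 regions, -1.11), chromosome 4, 153 Mb (87 regions, -0.77), chromosome 3, 111 Mb (-0.66) and X, 158 Mb (-0.58). Among bins with at least 50 tested regions, looked at after these values had been seen, the largest rises started at chromosome 4, 79 Mb (log2 0.83, 2 gains in 79 regions), chromosome 4, 77 Mb (0.69, 3 gains in 106) and chromosome 15, 15 Mb (0.64, 2 gains in 64), so few of their regions were called. The next, at chromosome 19, 3000001 to 4000000, held 20 gains in 108 regions and no loss. Its summed counts were 5960, 6607 and 5868 in the control and 9722, 9230 and 9676 in the CK666 libraries (log2 0.63 ± 0.04), and its gains were near Mrpl21, Ppp6r3, Tcirg1 and Chka, among others. The bin that starts at chromosome 4, 153 Mb held 10 losses and no gain, with sums of 5673, 5412 and 5599 in the control and 3337, 3078 and 3384 in the CK666 libraries. Both bins were apart in all libraries. Other falls started at chromosome 9, 116 Mb (20 losses in 208 regions, log2 -0.56), at chromosome 7, 137 Mb (13 losses, 6 of them near Ebf3, log2 -0.55) and at X, 167 Mb (7 losses, 3 near Tmsb4x, the gene of the actin monomer binder thymosin beta 4, log2 -0.57).

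The response was compared with that of MSCs, which have their own control libraries in the same table. In MSCs at 4 h 1810 of 306819 regions gained (0.59%) and 1310 lost (0.427%). Of the NIH 3T3 gains 399 were also gains in MSCs (6.42% of the NIH 3T3 and 22% of the MSC gains), and 83 losses were shared (1.5% and 6.34%). The NIH 3T3 shares are over all 6216 gains and 5549 losses, of which 4630 and 4781 were tested in MSCs. A call that was not tested there counts as not shared. The gains of NIH 3T3 cells had a median log2 fold change of 0.28 in MSCs and the losses of -0.12, over the 4630 and 4781 that were tested there. These regions were chosen by their change in NIH 3T3 cells, so smaller values in MSCs are in part set by that choice. The reverse medians, of MSC calls in NIH 3T3 cells, are not given here. An interaction of cell type and CK666 over the 12 libraries was called for 5176 of 368794 regions (1.4%, adjusted p under 0.01 and a difference beyond log2 1, edgeR quasi-likelihood test). It included 808 gains (13%) and 1776 losses (32.0%) of NIH 3T3 cells that were larger there than in MSCs. The change in NIH 3T3 cells, by which these regions were chosen, enters the difference. Without CK666 replicate 3, 488 of the gains had such a call.

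The C/EBP-ATF element was frequent among the gains of both cell types. It was in 59.4% of the 399 shared gains, in 19.7% of the other NIH 3T3 gains and in 26.9% of all MSC gains, against 5.84% of the regions tested in MSCs. AP-1 was in 29.3% of MSC losses, against 28.8% of the regions tested there. The Dip2c intron had a log2 fold change of 2.32 in MSCs (adjusted p = 2.60e-06, edgeR quasi-likelihood test), and its difference between cell types did not pass the threshold (adjusted p = 0.0985, edgeR quasi-likelihood test). Arpc5l was at 2.39 in NIH 3T3 cells and 2.26 in MSCs. The Nckap1 intron, by contrast, was at 0.00 in MSCs, a difference of -3.31 (adjusted p = 1.90e-13, edgeR quasi-likelihood test). The region downstream of Ccn2 fell further in MSCs (-2.48) than in NIH 3T3 cells (-1.55, adjusted p of the difference 0.00224, edgeR quasi-likelihood test).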

How the data were processed

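ATAC-seq reads from NIH 3T3 cells and MSCs were processed by the authors with PEPATAC, bowtie2 and MACS2 (versions not given in the sources used here) on mm10. The authors combined the peaks of the replicates of a condition and deposited raw read counts per region. The table holds 1 set of 369846 regions of 500 to 11728 bp for 12 libraries. All of its sample columns could be tied to a labelled sample.

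The deposited counts were tested with edgeR 4.0.16 (filterByExpr, TMM, quasi-likelihood F test, Benjamini-Hochberg) in R 4.3.3. Calls required log2 fold changes beyond 1 in size at an adjusted p under 0.01. Normalized counts are counts divided by TMM-scaled depth relative to the mean. Bins of 1 Mb summed regions by their centre, and the interaction was fitted over all 12 libraries. DESeq2 1.42.0 served as an alternative. Simulated counts took 10000 regions of the NIH 3T3 control and CK666 libraries with a mean of at least 20 counts. There, 88 of 100 changes of log2 1.5 and 97 of 100 of log2 2 were recovered, with 1 false call. Regions below that mean were not simulated, so these rates do not cover them. The lowest and second of 5 classes by mean count, with medians of 12.4 and 17.0, held 801 and 1054 gains. Total counts per library set the precision, and p-values cover the spread between libraries.

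Regions were placed with GENCODE vM21 basic on GRCm38.p6 and assigned to the nearest protein-coding TSS within 50000 bp. Motifs were searched on both strands in the central 300 bases. The gene lists, comparisons and members were chosen with earlier results of these data known. Named were the 10 largest gains and losses with a mean of at least 50 and no overlap, the same at protein-coding TSSs (overlap allowed), the 5 genes with most gains and losses, the 5 bins with the largest rise and fall (1 of them not reported here), up to 4 called genes per list and the TSS regions of listed genes. Dense bins, several single stress regions and the regions at Ern1, Eif2ak3, Ddit3, Fgf21 and Atf3 were named after their values were seen. MSC libraries entered only as a comparison. Alternatives were other scalings, filters, tools, bin sizes, a replicate block and leaving out each library.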

Additional observations from a re-analysis of the deposited data

Results flagged for a closer look

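The following regions are listed because the difference between CK666 and control was unequal in NIH 3T3 cells and MSCs by a test of the difference itself (interaction in edgeR's quasi-likelihood test over 12 libraries, adjusted p under 0.01). Each value is the log2 fold change in NIH 3T3 cells minus that in MSCs. Among the 10 largest gains the difference was 2.42 at Hdac4, 2.24 at 4933402D24Rik, 1.5 at Cubn and 2.40 at Map2k1. All 10 of the largest losses were on the list, with -3.31 at Nckap1, -3.03 at 1700057G04Rik, -2.66 at Mmp19, -2.30 at Atp5g2, -3.03 at Ogg1, -3.65 at Klk7, -2.77 at Uggt1, -3.14 at Mapk1ip1, -2.15 at Eomes and -2.26 at Fan1. At promoters with a gain it was 1.73 at Tenm4, 1.05 at Calhm6, 1.65 at Dlgap3 and 1.24 at Rnaseh2c. At promoters with a loss it was -1.95 at Tmprss11f, -1.89 at Plekha8, -1.33 at Aqp1, -1.78 at Mtss1l, -1.06 at Ldb3, -1.63 at Clec2h, -1.28 at Cyth1 and -2.27 at Gm17677. Over all regions, 808 gains and 1776 losses of NIH 3T3 cells had a called difference in the same direction. These gains and losses and the 40 named regions were chosen by their change in NIH 3T3 cells, which enters the difference.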

How the results depend on the processing

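All 40 named regions of largest change kept their direction under every alternative run, and Cited4 and Ebf4 alone lost their call, as given above. Gains were 3194 with DESeq2, 7712 with each chromosome scaled to its own total (8022 with scaling by total counts over all chromosomes) and 1315 among regions whose mean normalized count reached 50 (chromosome scaling and this limit were chosen after seeing the data), against 6216. Losses were 3514 with scaling by total counts, 3441 with chromosome scaling, 14443 with no fold limit and 3458 above that mean, against 5549. Leaving out 1 library gave 3446 to 5883 gains and 4533 to 6854 losses, 338 to 552 bins that rose and 435 to 602 that fell, and 488 to 726 gains and 1376 to 2100 losses with an interaction call. Other bin sizes gave 1393 rises and 2011 falls with bins of 250 kb and 130 and 134 with bins of 5 Mb. Counting TSSs of protein-coding genes alone, a TSS lay in 2.57% of gains and 0.775% of losses. Uncalled promoters near 0 changed sign: Arpc2 was at -0.022 on the log2 scale with libraries thinned to the shallowest and between -0.10 and 0.17 with 1 library left out, Arpc3 at 0.029 with chromosome scaling (below 0 with total counts) and between -0.21 and 0.015 with 1 library left out, and Arpc5 at 0.016 with chromosome scaling (below 0 with total counts). Chromosome scaling uses totals in place of TMM, so it changes both choices. Restricting regions to 5 kb from a TSS lowered most list counts, because fewer regions were counted. The cause of the other shifts was not tested.

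Same-numbered libraries did not deviate together (correlations of -0.06 to -0.01), so replicate numbers were not taken as pairs. With the replicate number as a block, 6002 regions gained and 5715 lost (5333 and 5822 with the GC trend also removed), 460 bins rose and 559 fell, and 615 gains and 1550 losses had an interaction call. Depth limits how many regions are called: with all libraries thinned to 14496058 counts, 4560 regions gained and 5040 lost.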
